A study of Mus musculus with 14 samples.

Results

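The comparison described here is between the retinal pigment epithelium (RPE) of Clic4 KO mice and that of wild-type (WT) mice, which takes up 6 of the 14 RNAseq libraries of the study: 3 KO and 3 WT libraries. Genotype comes from the labels. No label names the set a KO library belongs to, and these 3 were placed with the WT libraries by the shared style of their titles and the animal list of the study. The KO mice are Best1-Cre+/-; Clic4f/f on C57BL/6J, so that they carry a Cre transgene and floxed Clic4 alleles, and the WT mice are C57BL/6J animals that carry neither. All mice were 3 months old. The animal list of the study gives all of them as male. Each library was made from the RPE cells of both eyes of 1 mouse. Cre is driven by the promoter of Best1, a gene of RPE cells that becomes active after birth, and other cells of the eye keep an intact Clic4 gene. The mice described as littermates of the KO mice are the Ctrl mice, not the WT mice. The study has 8 further libraries in sets of their own, 2 KO libraries with 2 Ctrl (Clic4f/f) libraries and 2 KO libraries with 2 CreCtrl (Best1-Cre+/-) libraries, which are used below only to look at the same genes in libraries that share nothing with the KO vs. WT comparison.

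The RPE is a single layer of pigmented epithelial cells between the photoreceptors and the choroid, a vascular connective tissue. It recycles retinoids for vision, takes up shed photoreceptor outer segments, moves ions, water and nutrients between the blood and the retina, and holds melanin. CLIC4 is a member of the chloride intracellular channel family and takes part in membrane trafficking and in the organisation of the apical membrane. RPE cells are loosened from the eye by enzymes, and cells of the choroid and sclera (fibroblasts, endothelium, pericytes, macrophages) can come off with them, so that the share of each tissue's transcripts in a library is part of what is measured.

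The deposited counts of a library summed to between 9828293 and 12363580 in the WT group (median 10358693) and to between 16040454 and 16370963 in the KO group (median 16239754). Levels are given as CPM (a gene's counts scaled to a fixed library total), scaled by edgeR's TMM factors over the 6 libraries. A gene was called when edgeR's quasi-likelihood test gave a Benjamini-Hochberg adjusted p under 0.05 over the 15428 genes tested and the fold change exceeded 1.5. The p-values measure the spread between 3 mice and 3 mice. On log2 CPM the WT libraries correlated with each other at 0.941 to 0.951, the KO libraries at 0.955 to 0.968, and a WT with a KO library at 0.807 to 0.874, over genes, which are not independent replicates.

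Clic4 (ENSMUSG00000037242, GRCm38 chromosome 4, 135213969 to 135272814, minus strand) stood at 243, 249 and 240.4 CPM in the WT libraries and at 32.6, 22.5 and 17.9 CPM in the KO libraries. The groups were far apart, and transcripts remained in every KO library. The counts cover the whole gene and not only its floxed part. The log2 fold change was -3.32 (SE 0.22, adjusted p = 3.33e-05, edgeR with Benjamini-Hochberg adjustment). Best1, the chloride channel gene whose promoter drives Cre in the KO mice, was low in both groups. It had 3.53, 6.42 and 4.60 CPM in WT and 1.21, 1.35 and 1.54 CPM in KO libraries. Its log2 fold change of -1.82 was not called (edgeR, adjusted p = 0.0616). Relative to RPE marker genes, a scale described below, it was -3.51 (edgeR, adjusted p = 0.000927) and called lower, as were 75.7% of all genes.

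The KO and WT libraries held different shares of tissues, and every result below has to be read beside this. The 10 RPE markers, genes of the visual cycle and of RPE transport such as Rpe65, Rgr and Rlbp1, took up 1.20 to 1.49% of the counts of a WT library and 3.68 to 3.90% of those of a KO library. The 10 fibroblast markers, collagens and matrix proteoglycans such as Col1a1, Col1a2 and Col3a1, took up 0.887 to 0.905% in WT and 0.0247 to 0.0680% in KO libraries. Neither list overlapped between the groups, and none of the 20 markers was at 0 in a library. KO replicate 1 had the highest fibroblast share among the KO libraries. In bulk RNA, fewer cells of a type and less RNA per cell cannot be told apart.

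The summed shares of other cell types of the choroid and sclera were also lower in KO libraries. Endothelial markers took up 0.0404 to 0.0937% of counts in WT and 0.00751 to 0.0146% in KO libraries, with 9 of 10 called lower in the test described next, macrophage markers 0.214 to 0.355% and 0.0748 to 0.0916%, and erythrocyte markers 0.0398 to 0.0707% and 0.0128 to 0.0182%. Pericyte and smooth muscle markers took up 0.276 to 0.284% and 0.0372 to 0.0455%, but only 4 of these 8, Rgs5, Pdgfrb, Tagln and Abcc9, were called lower. In the same test 17.6% of all genes were called lower. Acta2, smooth muscle actin, averaged 150.5 CPM in WT and 235 CPM in KO libraries, and the groups overlapped. Rod markers, from photoreceptors, overlapped between the groups (0.00708 to 0.181% in WT and 0.0362 to 0.205% in KO libraries). Schwann cell markers also overlapped, at 0.0711 to 0.0853% and 0.0802 to 0.0852%. The immediate-early genes, which respond within minutes to handling and other stimuli, took up 1.74 to 2.06% of counts in WT and 0.0978 to 0.231% in KO libraries.

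**Figure D1:**
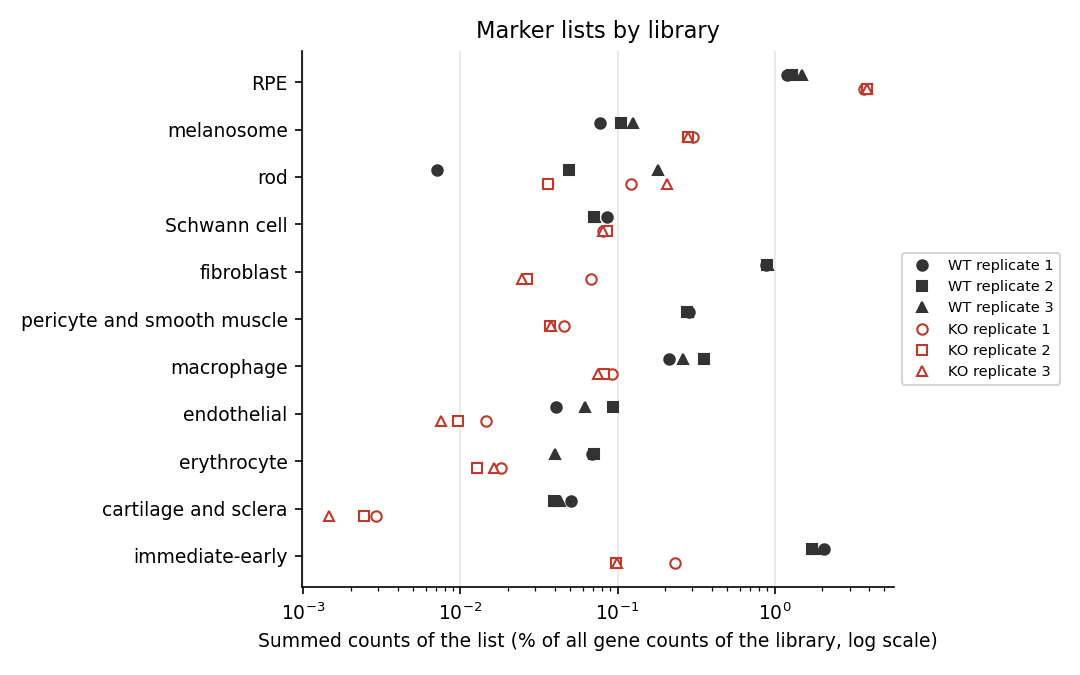
Summed counts of 11 gene lists as a percentage of all gene counts of a library (log scale), with filled black symbols for the 3 WT and open red symbols for the 3 KO libraries. The KO libraries lie above the WT libraries for RPE and melanosome genes, below them for fibroblast, pericyte, macrophage, endothelial, erythrocyte, cartilage and immediate-early genes, and among them for rod and Schwann cell genes.

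Across all genes, 4887 of 15428 (31.7%) were called with TMM scaling, 2171 (14.1%) as higher in KO and 2716 (17.6%) as lower. Every KO library exceeded every WT library for 3656 genes (23.7%), and the reverse held for 4381 (28.4%). The median log2 fold change was -0.08, and the middle 50% of genes lay between -0.86 and 0.51. The split between directions depended on the scaling: with library size alone 1421 genes were called higher and 3580 lower, so that 28.4% of calls were higher where TMM gave 44.4%. Called genes were more frequent among the genes with more counts. With genes split into 4 equal bins by mean CPM, 1.04% were called higher and 9.18% lower in the lowest bin, and 30.3% and 17.4% in the highest.

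Gene length and position were also compared with the calls. Among protein-coding genes the median log2 fold change went from 0.11 in the shortest of 4 bins by exon length to -0.20 in the longest, and the share called higher from 20.5 to 11.3%, whose part in the results was not tested. Of the genes tested within 5 Mb of Clic4 on chromosome 4, 8.72% were called higher and 21.5% lower, beside 14.1% and 17.6% of all genes.

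The 10 genes that fell most, among those with at least 10 CPM on average, included matrix proteins of tendon and cartilage. Comp, a cartilage and tendon matrix protein (ENSMUSG00000031849), stood at 122, 160 and 142 CPM in WT and at 1.34, 1.35 and 3.01 CPM in KO libraries, a log2 fold change of -6.21 (SE 0.31, edgeR, adjusted p = 2.03e-05). Chad, which encodes chondroadherin of cartilage matrix, fell by 5.58 on the log2 scale and Tnmd, the tendon glycoprotein tenomodulin, by 5.59. Bnc2, a zinc finger protein of fibroblasts, fell by 6.12, and Tfpi, an inhibitor of coagulation, by 5.86. The other 5 were Cytl1, Zbtb7c, Retnla, Glt8d2 and Prss35, with log2 fold changes from -6.05 to -5.61. All 10 had each KO library below each WT library, as the rule that named them required.

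Most genes of the extracellular matrix lists fell with the fibroblast markers. The counts of this paragraph are to be read beside 14.1% of all genes called higher and 17.6% called lower. All 10 fibroblast markers were called lower, with log2 fold changes from -4.62 to -2.46 and a median of -4.32. Of 10 fibrillar and associated collagens outside the markers 9 were lower, with a median of -4.20. Col6a1 stood at 451, 423 and 509 CPM in WT and at 29.9, 15.5 and 20.5 CPM in KO libraries, while Col8a1, a collagen of Descemet's and Bruch's membranes, was higher (275, 286 and 323 against 796, 710.3 and 1065 CPM, log2 fold change 1.54). Col8a1 was singled out after its value was seen, as the only collagen of that list that rose. Of 17 basement membrane genes 8 were lower and 5 higher. Col4a1 and Col4a2, the collagen IV chains of most basement membranes, fell by 3.22 and 2.49 on the log2 scale, whereas Col4a3, a chain of specialised epithelial basement membranes, rose by 1.05 (290.0, 136 and 174 CPM in WT and 384, 397 and 461 CPM in KO libraries). The mesenchymal list had 9 of 10 lower, among them Vim, an intermediate filament gene, with -2.21, Fn1, fibronectin, with -5.01, and Snai1, a transcription factor of mesenchymal cells, with -3.19.

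Most genes of the immune lists were lower in the KO libraries. Of 12 macrophage markers 11 were called lower, with a median log2 fold change of -3.73, and the remaining one, Csf1r, the receptor of the macrophage growth factors, lay the other way: it stood at 521, 529 and 560.1 CPM in WT and at 760.0, 809 and 741 CPM in KO libraries, a log2 fold change of 0.52 (edgeR, adjusted p = 0.00743), short of the 1.5-fold threshold. Adgre1, the F4/80 antigen, stood at 41.0, 53.5 and 54.3 CPM in WT and at 2.08, 3.18 and 1.07 CPM in KO libraries. Of 14 chemokines and receptors 12 were lower (median -3.20), for example Ccl2, an attractant of monocytes, with -2.42. Of 12 genes of antigen presentation 9 were lower (median -2.42). H2-K1 and H2-D1, class I molecules, fell by 1.22 and 2.28, and B2m, their shared light chain, was not called (0.29). Of 14 interferon response genes 5 were lower and 2 higher, beside 17.6% and 14.1% of all genes. The macrophage marker share fell beside all of these lists, and its part in them was not tested.

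The immediate-early genes fell together. All 16 were called lower (beside 17.6% of all genes), with a median log2 fold change of -3.52 and a range from -4.03 to -2.86. Fos, a subunit of the AP-1 transcription factor, stood at 2672, 2342 and 2325 CPM in WT and at 330.2, 116 and 131 CPM in KO libraries. Jun, its partner, stood at 1937, 1345 and 1563 CPM against 300.2, 167 and 110.2 CPM. KO replicate 1, which had the highest fibroblast share of the KO libraries, also had the highest level of both. The part of that share, and of tissue handling, in these genes was not tested.

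**Figure D2:**
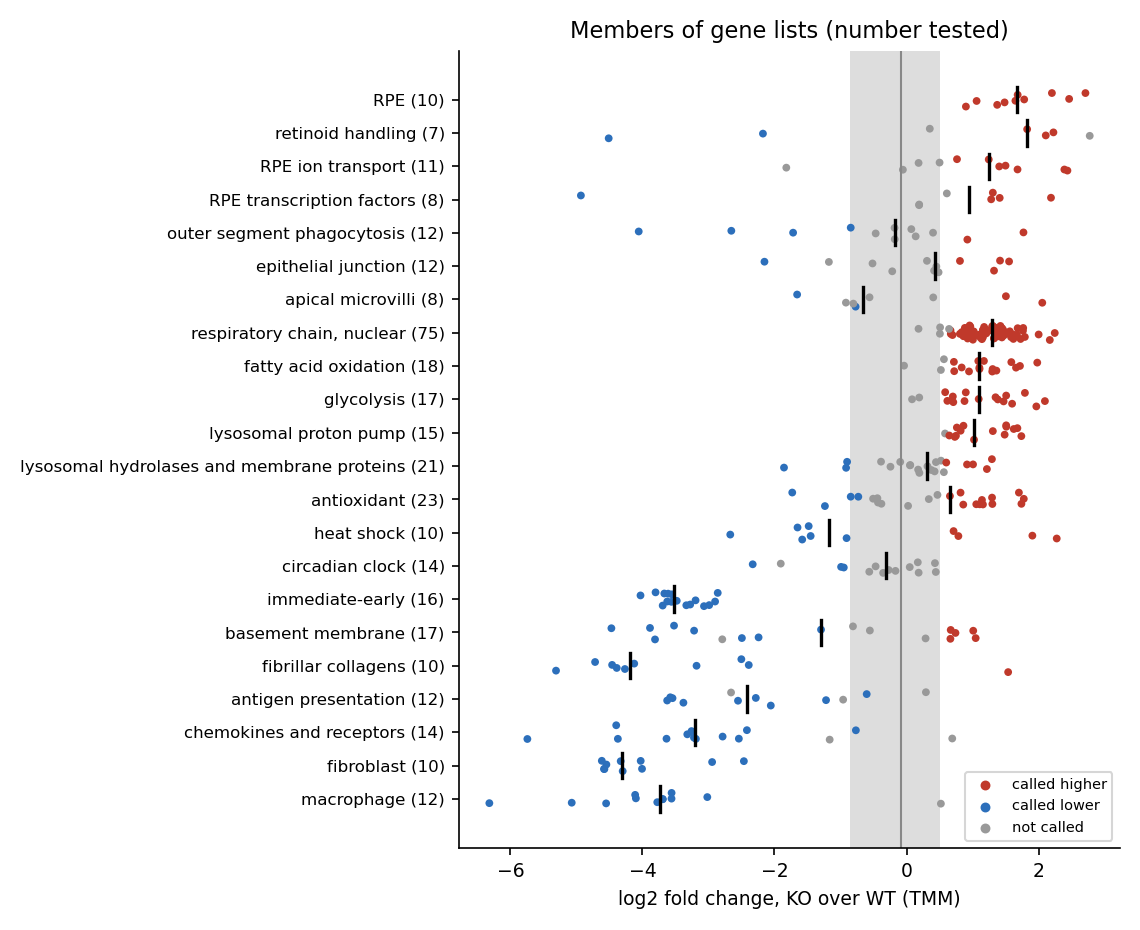
TMM log2 fold change, KO over WT, of each tested member of 22 gene lists (points; red called higher, blue called lower, grey not called), with the list's median as a black bar, the middle 50% of all genes as a grey band and their median as a grey line. RPE and energy metabolism lists lie to the right of the band, and fibroblast, macrophage, collagen, chemokine and immediate-early lists to its left.

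Genes of RPE function were mostly higher in KO libraries when scaled by TMM. The counts called here are to be read beside 14.1% of all genes called higher and 17.6% called lower. All 10 RPE markers were called higher, with log2 fold changes from 0.90 to 2.71 and a median of 1.67. Rpe65, the retinoid isomerase of the visual cycle, stood at 1234, 1294 and 1749 CPM in WT and at 4655, 5043 and 5019 CPM in KO libraries, and Rlbp1, a retinaldehyde carrier, at 1850.1, 2479 and 2748 against 5728, 6492 and 6118 CPM. Of 9 melanosome genes 7 were higher (median 1.68). Tyr, the enzyme that starts melanin synthesis, had a log2 fold change of 1.68, Tyrp1 0.86 and Dct 2.04, and Mlana was not called (0.37). Of the 11 ion transport genes 7 were higher (median 1.25), among them Kcnj13, the potassium channel of the apical membrane, with 2.44 and Trpm1, a cation channel, with 0.77, whereas Slc12a2, the sodium, potassium and chloride cotransporter, was not called (-0.06). Of 8 transcription factors 4 were higher, such as Otx2 (1.31) and Sox9 (1.28), and 1 was lower, Tfec, which had at most 2.82 CPM in any library. Mitf, a regulator of pigment cell genes, was not called (0.19).

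Retinoid handling, phagocytosis and junction genes had members called each way. Of all genes, 14.1% were called higher and 17.6% lower, and the counts of this paragraph are to be read beside these shares. Rdh10 and Rdh11, which convert retinoids inside cells, rose by 2.23 and 2.11 on the log2 scale, whereas Cyp26a1, which breaks down retinoic acid, fell by 4.51 (127, 82.7 and 200.5 CPM in WT and 6.36, 3.59 and 8.03 CPM in KO libraries). Of 12 genes of outer segment phagocytosis 2 were higher and 4 lower, with a median of -0.18 that lay near that of all genes. Mertk, the receptor kinase for engulfment, rose by 0.92 and Itgav, a subunit of the binding integrin, by 1.77, while its partner Itgb5 was not called (-0.47). Pros1, a bridging ligand of Mertk, fell by 2.65 and Cd36, a scavenger receptor, by 4.06. Among 12 epithelial junction genes 4 were higher, for example Ocln (1.55), and F11r, an adhesion molecule also found on endothelium and leukocytes, fell by 2.15. Of 8 genes of the apical microvilli 2 were higher and 2 lower: Ezr, the ezrin linker of RPE microvilli, rose by 2.06 and its relative Msn fell by 0.77.

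Most genes of energy metabolism rose with TMM. Of 75 nuclear genes of the respiratory chain 71 were called higher (median log2 fold change 1.30), of 18 genes of fatty acid oxidation 15 (1.10), of 17 of glycolysis and glucose uptake 15 (1.09) and of 15 subunits of the lysosomal proton pump 14 (1.02). Ndufa1, a complex I subunit, stood at 41.2, 45.7 and 40.2 CPM in WT and at 99.5, 110.5 and 104 CPM in KO libraries. Cpt2, of mitochondrial fatty acid import, stood at 29.4, 26.3 and 27.4 CPM against 97.0, 87.8 and 89.0 CPM. The lysosomal hydrolases did not follow the pump: 5 of 21 were higher and 3 lower, beside 14.1% and 17.6% of all genes. Ctsd and Ctsb, the main cathepsins, were not called (0.45 and 0.20). Of 18 sterol synthesis genes 10 were higher (median 0.96). Of 23 antioxidant genes 12 were higher and 4 lower, with Sod1 and Sod2 higher (1.78 and 1.30) and the secreted Sod3 lower (-1.24). None of the 13 protein genes of the mitochondrial genome was found by name in the deposited counts, so they could not be tested.

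Heat shock genes were divided, and the unfolded protein and clock lists lay near all genes, of which 14.1% were called higher and 17.6% lower. Of 10 heat shock genes 6 were lower and 4 higher. Hspa1a, Hspa1b and Hsph1, inducible chaperones, fell by 1.65, 1.48 and 1.58, and the 4 that rose, named after their values were seen, were Hsp90aa1 (2.28), Cryab (1.91), Hspe1 (0.79) and Hspd1 (0.71). Hspa1a and Hspa1b are near-identical copies, and reads that fit both are uncertain. Of 17 genes of the unfolded protein response 5 were higher and 2 lower, Hspa5, the chaperone of the endoplasmic reticulum, was not called (-0.46) and Ddit3 fell by 0.99. Of 14 clock genes none was higher and 3 (median of the list -0.31) were lower, and Arntl, Clock and Npas2 were not called (-0.56, 0.17 and -1.91). Of 12 cell cycle genes tested 1, Cdk1, named after its value was seen, was higher (1.14), and none was lower.

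Because the RPE share differed, the fit was repeated with size factors set by the 10 RPE markers, so that each gene is read relative to RPE transcripts, and by the 10 fibroblast markers. Per total count the RPE markers stood 2.75-fold higher in KO than in WT libraries and the fibroblast markers 27.3-fold lower. Relative to the RPE markers the all-gene median of the log2 fold changes moved from -0.08 to -1.79, and 62 genes (0.402%) were called higher and 11684 (75.7%) lower. The 62 became 102 without WT replicate 2 and 39 without the markers Rlbp1, Rdh5 and Slc16a8. Relative to the fibroblast markers the median moved to 4.57, and 13607 (88.2%) were called higher and 5 (0.0324%) lower. The 5 became 76 without KO replicate 1, 17 without KO replicate 3 and 573 with the endothelial markers as the scale. Of the 2171 genes called higher with TMM, 62 were also higher relative to the RPE markers, 982 were not called and 1127 (7.3% of all genes) were lower. Of the 2716 called lower with TMM, 5 were also lower relative to the fibroblast markers, 1045 were not called and 1666 (10.8% of all genes) were higher.

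The scaling changed what the lists showed. The RPE markers themselves, which set the scale, spread from -0.82 for Slc6a20a, an amino acid transporter, to 1.02 for Lrat, which makes retinyl esters, so that a gene within this span lies within the spread of the markers. The nuclear respiratory chain genes, 71 of which rose with TMM, had a median of -0.40 relative to the RPE markers, with none higher and 25 lower. Medians were -0.59 for fatty acid oxidation and glycolysis, -0.67 for the lysosomal proton pump and -0.72 for sterol synthesis, again with none higher, beside -1.79 for all genes. Of all genes 0.402% were called higher on this scale, so that none higher in a list of this size is close to that share. The phagocytosis list, with 11 of 12 members lower (median -1.88), and the clock list, with 14 of 14 (median -2.06), had medians near that of all genes, of which 75.7% were lower. The melanosome list had a median of 0.02, with 2 of 9 members higher and 3 lower, and retinoid handling a median of 0.16, with none higher and 3 lower.

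**Figure D3:**
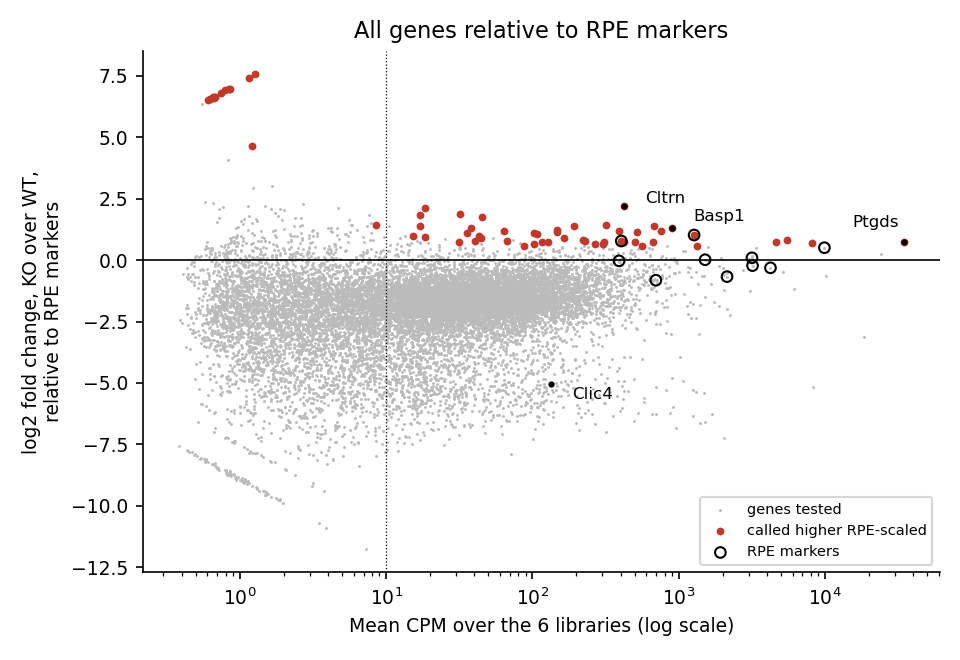
Log2 fold change, KO over WT, relative to the RPE markers, against mean CPM over the 6 libraries (log scale), for all 15428 genes tested (grey), the 62 called higher (red) and the 10 RPE markers (circles); the dotted line marks 10 CPM. The middle 50% of genes lies between -2.57 and -1.19, and the 13 red points at the upper left are genes with less than 0.1 CPM on average in WT.

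The 62 genes that were higher beyond the RPE markers had all been called higher with TMM. For 12 of them no WT library had a count, and none exceeded 4.08 CPM in a KO library. The 48 genes with a mean of at least 10 CPM had log2 fold changes relative to the RPE markers from 0.59 to 2.19, with a median of 0.93. Of these, 20 lay above the highest RPE marker and 28 within the markers' spread. Of the 62, 7 were members of the lists described here: Lrat and Ermn are 2 of the RPE markers that set the scale, Oca2 and Gpr143 are melanosome genes, Kcnj13 and Atp1b1 ion transport genes and Hsp90aa1 a heat shock gene.

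The gene with the largest excess at 10 CPM or more was Cltrn, which encodes collectrin, a membrane protein that helps amino acid transporters reach the apical surface (ENSMUSG00000015401, chromosome X, 164088830 to 164118860, plus strand). It stood at 27.4, 57.8 and 82.2 CPM in the WT libraries and at 789, 759 and 817 CPM in the KO libraries. The KO libraries lay close together, and the WT libraries had the same order as in their RPE marker share, with WT replicate 1 lowest and WT replicate 3 highest in both. The log2 fold change was 3.82 with TMM (SE 0.36, edgeR, adjusted p = 0.000114) and 2.19 relative to the RPE markers (SE 0.26, adjusted p = 1.00e-04).

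The 12 genes with the largest excess were named by a rule that required every KO library to lie above every WT library. Nyap2, an adaptor of phosphoinositide 3-kinase signalling in neurons, stood at 1.94, 2.23 and 3.17 CPM in WT and at 33.2, 30.0 and 39.7 CPM in KO libraries (2.13 relative to the RPE markers). Basp1, a membrane protein of growth cones, stood at 171, 188 and 249 CPM against 1504, 1626 and 1661 CPM (1.29). Gpm6a, a neuronal membrane glycoprotein, stood at 27.5, 38.8 and 36.5 CPM against 262, 241 and 281 CPM (1.24). All 3 were several times higher in the KO than in the WT libraries. Sntb1, a syntrophin that links membrane proteins to the cytoskeleton, stood at 3.18, 12.2 and 7.55 CPM against 72.6, 64.7 and 110.3 CPM (1.77), and Ankfn1, an ankyrin repeat protein, at 6.88, 4.28 and 2.87 CPM against 65.2, 34.5 and 77.9 CPM (1.90).

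Sult1c1, a cytosolic sulfotransferase, stood at 30.8, 79.4 and 92.7 CPM in WT and at 615, 551 and 550.3 CPM in KO libraries (1.44 relative to the RPE markers), with WT replicate 1 again lowest. Npl, the lyase that breaks down sialic acid, stood at 3.71, 4.28 and 2.49 CPM against 30.5, 30.0 and 30.9 CPM (1.39). Fam213a, a peroxiredoxin-like protein, stood at 139, 120.3 and 177 CPM against 1211, 1257 and 1191 CPM (1.37). The KO libraries of Npl and Fam213a lay close together. Lalba, the milk protein alpha-lactalbumin, stood at 2.65, 3.16 and 2.11 CPM against 25.7, 28.2 and 39.7 CPM (1.84), Fetub, a secreted protease inhibitor, at 6.44, 9.31 and 9.36 CPM against 59.0, 59.1 and 83.9 CPM (1.32), and Parm1, a membrane glycoprotein, at 40.9, 43.2 and 34.2 CPM against 310.3, 338 and 395 CPM (1.41). Adjusted p-values of the 12 genes relative to the RPE markers were between 4.89e-05 (Basp1) and 0.0116 (Npl) in edgeR's test.

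**Figure D4:**
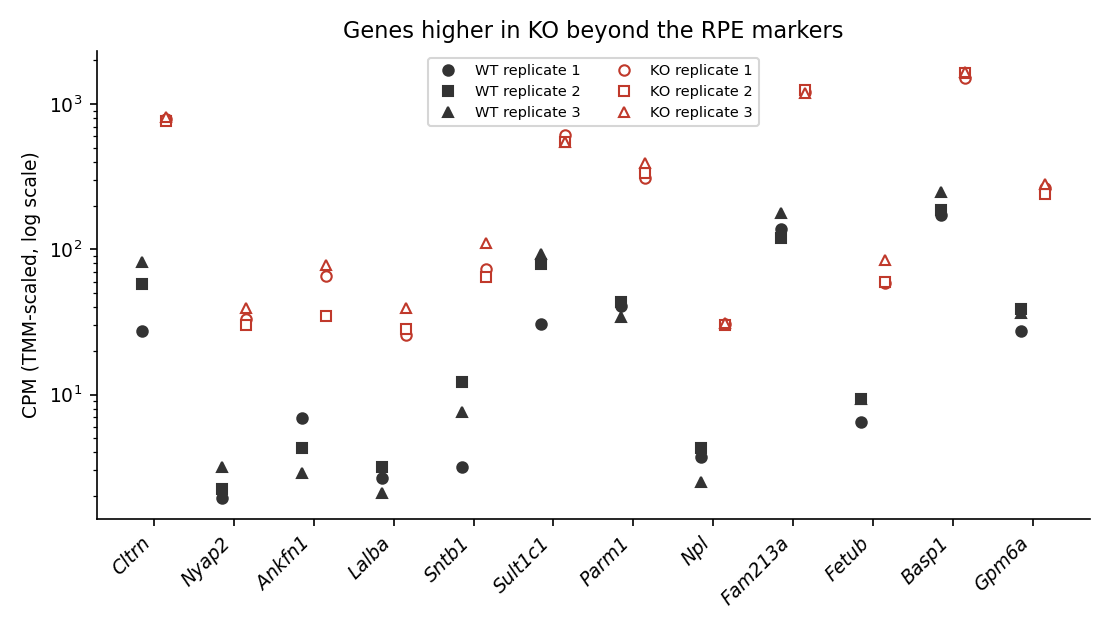
CPM (log scale) of the 12 genes with the largest excess over the RPE markers, in the 3 WT (filled black) and 3 KO (open red) libraries. For each gene every KO library lies above every WT library, as the rule that named the genes required, for example 759 CPM in the lowest KO against 82.2 CPM in the highest WT library for Cltrn, and 34.5 against 6.88 CPM for Ankfn1.

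The start regions of these genes are shown because genes that move together could share letters there. RefSeq promoters (GRCm38.p6) were found for 37 of the 48 genes, and the 250 bases before the start were searched on both strands for CACGTG (the E-box of many basic helix-loop-helix factors), CATGTG (the core of the M-box known from pigment cell genes) and TAATCC (known for OTX and CRX factors), none of which overlaps another by its letters. CACGTG was found in 4 of the 37 (10.8%), beside 8.07% of the genes tested and 6.05% of all promoters in the table. CATGTG was in 3 (8.11%, beside 7.54% and 12.2%), and TAATCC in 3 (8.11%, beside 5.33% and 6.38%). The shares are close to the background, and a match is a description, not a site. Of the 12 genes with the largest excess 9 had a promoter to search, and 1 of the 9 held each motif, printed 5′ to 3′ on the gene's strand with the match on either strand in capitals. Npl lies at chr1:153549715-153549964 (minus strand) and its CACGTG begins at -51, Sult1c1 at chr17:53990632-53990881 (minus strand) with the reverse complement of TAATCC at -52, and Lalba at chr15:98482684-98482933 (minus strand) with CATGTG at -229.
Npl: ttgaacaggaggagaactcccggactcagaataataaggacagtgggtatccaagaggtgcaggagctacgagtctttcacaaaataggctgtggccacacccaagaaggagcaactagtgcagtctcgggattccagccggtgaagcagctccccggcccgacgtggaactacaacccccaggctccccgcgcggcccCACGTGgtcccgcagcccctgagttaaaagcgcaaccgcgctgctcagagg
Sult1c1: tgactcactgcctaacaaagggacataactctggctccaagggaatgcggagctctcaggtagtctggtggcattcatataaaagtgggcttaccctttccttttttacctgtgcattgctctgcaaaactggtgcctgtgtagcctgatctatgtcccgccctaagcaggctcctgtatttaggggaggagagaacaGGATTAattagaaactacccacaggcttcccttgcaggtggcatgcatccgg
Lalba: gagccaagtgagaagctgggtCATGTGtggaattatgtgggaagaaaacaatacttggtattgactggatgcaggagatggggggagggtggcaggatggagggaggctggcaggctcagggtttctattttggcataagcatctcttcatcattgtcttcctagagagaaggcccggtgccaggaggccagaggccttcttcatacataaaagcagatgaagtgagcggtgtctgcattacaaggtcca

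The same genes were then read in the 2 other sets of libraries, with the RPE markers of each set as the scale. The RPE markers per total count were 1.42-fold higher in KO than in Ctrl libraries and 1.37-fold higher in KO than in CreCtrl libraries, and fibroblast markers were 9.66-fold and 13.6-fold lower. In the Ctrl set 0 of 15287 genes were called higher by edgeR's test (0% as background, 2 genes at an unadjusted p under 0.05) and 0 by DESeq2's, and 13 of the 48 genes had a log2 fold change above 0, with a median of -0.16, beside 5.42% of all genes above 0 and a median of -0.61. Lower genes made up 4.42% by edgeR's test and 19.4% by DESeq2's. In the CreCtrl set 20 of 15963 genes (0.125%) were called higher (0.194% by DESeq2's test) and 29.6% lower (37.6%). The 20 included 4 of the 48, and 40 of the 48 were above 0, with a median of 0.28, beside 8.35% of all genes and a median of -0.71. The 4, named after their values were seen, were Parm1 (0.69), Dusp4, a phosphatase of MAP kinases (0.77), Itgb8, an integrin subunit (0.63), and Lrat (0.61). In the KO vs. WT comparison these had log2 fold changes of 1.41, 1.15, 1.18 and 1.02. On this scale a gene that follows the RPE markers lies near 0 by construction, while the all-gene median lies below 0. A share above 0 that exceeds that of all genes therefore does not show a rise in these sets. Each of the 2 sets has 2 libraries a group.

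Of the 12 genes with the largest excess, Cltrn had 0.11 against Ctrl and 0.17 against CreCtrl, beside 2.19 against WT. Nyap2 had -0.39 and 0.79, Ankfn1 -0.74 and 0.48, and Sult1c1 0.39 and -0.43. The 12 were chosen for their KO vs. WT value, so a lower value in another set is partly fixed by the choice. Tests of these differences are not given, since the choice tilts them. By edgeR's test none of the 12 was called against Ctrl and only Parm1 against CreCtrl. Clic4 itself was not called against Ctrl by edgeR's test (-2.25, adjusted p = 0.0814) but was by DESeq2's (-2.25, adjusted p = 0.00145). Against CreCtrl it was called by both (-2.90, edgeR, adjusted p = 0.00878, and -2.91, DESeq2, adjusted p = 2.64e-12). A missing call in edgeR's test with 2 libraries a group therefore says little. Control genotype and set go together, so that they cannot be told apart.

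**Figure D5:**
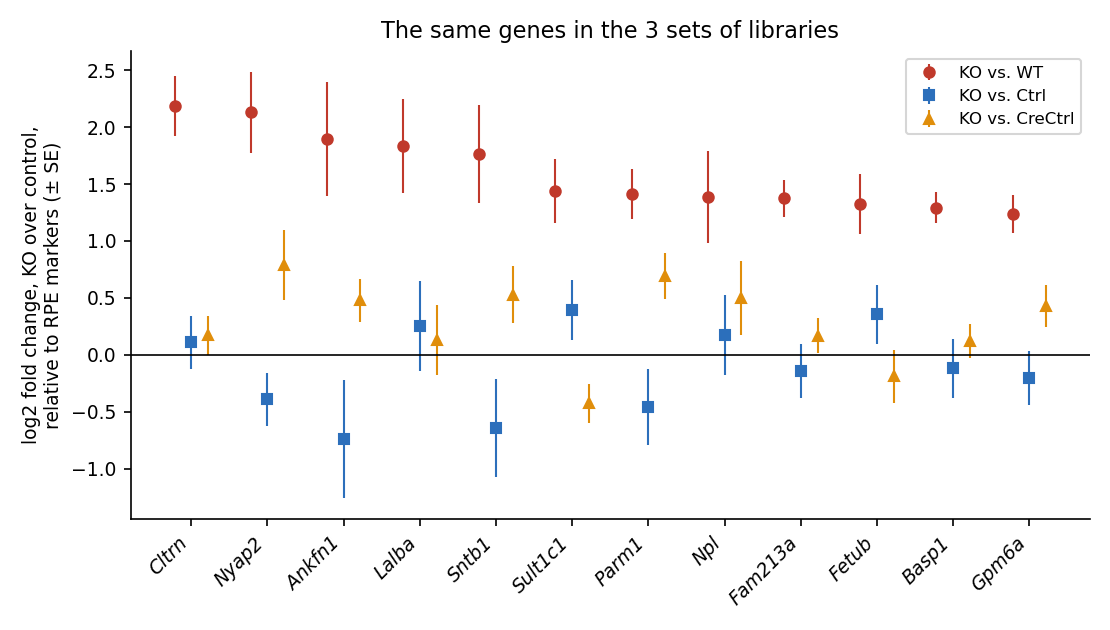
Log2 fold change, KO over control, relative to the RPE markers of each set, of 12 genes in the KO vs. WT (red circles, 3 and 3 libraries), KO vs. Ctrl (blue squares, 2 and 2) and KO vs. CreCtrl (orange triangles, 2 and 2) comparisons, with standard errors from edgeR's fit as bars. All 12 lie between 1.24 and 2.19 against WT, between -0.74 and 0.39 against Ctrl and between -0.43 and 0.79 against CreCtrl.

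Among the genes that fell, 5 were lower than the fibroblast markers, a count that moved with the libraries and markers used, as given above. The genes themselves changed too. DESeq2's test called 4 lower, of which 2 were among the 5, and without KO replicate 1 the 76 called held 3 of the 5. Comp was the only one of the 5 with at least 10 CPM on average. Its log2 fold change relative to the fibroblast markers was -1.49 (edgeR, adjusted p = 0.0348), and this call was lost in 5 of 13 alternatives. They were the test without a count filter and the fits without WT replicate 1, 2 or 3 or KO replicate 1, with edgeR adjusted p up to 0.147. The other 4, named after their values were seen, had 0 counts in every KO library: Sgcd, a sarcoglycan of muscle membrane, Sox8, a transcription factor, Il1rl1, the receptor of interleukin-33, and Lyve1, a hyaluronan receptor of lymphatic vessels and resident macrophages. Against a floor of 3 counts a library they were at least 38.3-fold, 34.5-fold, 19.6-fold and 71.9-fold lower by CPM, which covers counting error only. These bounds are on the TMM scale and not relative to the fibroblast markers, whose median log2 fold change with TMM was -4.32. The bound of Il1rl1 does not exceed that fall. Il1rl1 stood at 1.06, 9.21 and 1.59 CPM in WT libraries, and without WT replicate 2 its bound was 6.56-fold.

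The CLIC family as a whole did not move together. Clic4 fell relative to the RPE markers by 5.03 on the log2 scale (edgeR, adjusted p = 6.65e-06), and relative to the fibroblast markers it was 1.20 higher (adjusted p = 0.0305). Its reading as called higher on the fibroblast scale was lost in 8 of 13 alternatives and turned negative in 1. Clic1, a widely expressed member, stood at 86.4, 107 and 107 CPM in WT and at 39.3, 36.8 and 20.6 CPM in KO libraries (-1.64 with TMM, -3.33 relative to the RPE markers). Clic5, found in microvilli, fell by 2.56, and Clic6 rose by 1.67 with TMM and stood at 0.00 relative to the RPE markers. Clic3 was not called (0.48) and had at most 2.48 CPM in any library. Relative to the RPE markers, the KO vs. WT effect of 2 of the 5, Clic4 and Clic1, differed from the KO vs. Ctrl effect and from the KO vs. CreCtrl effect in edgeR's test of the difference (adjusted p under 0.05), as did 33.9% and 33.8% of all genes. The all-gene median on this scale also differed between the sets, at -1.79 against WT, -0.61 against Ctrl and -0.71 against CreCtrl.

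The most abundant transcripts included genes of both tissues. Ptgds, which encodes the secreted lipocalin-type prostaglandin D synthase, stood at 8891, 10196 and 12956 CPM in WT and at 57559, 61767 and 55021 CPM in KO libraries, a log2 fold change of 2.44 with TMM and of 0.76 relative to the RPE markers. Cst3, the protease inhibitor cystatin C, stood at 1740, 2639 and 3585 CPM against 13958, 14139 and 13048 CPM (2.37 and 0.71). Igfbp5, a binding protein of insulin-like growth factors, stood at 16043, 14068 and 15654 CPM in WT and at 1878, 1188 and 1136 CPM in KO libraries (-3.44 and -5.16). Gm42418, whose reads resemble ribosomal RNA, stood at 45685 CPM in WT replicate 1 and at 7883 to 19437 CPM in the other 5 libraries, so that WT replicate 1 stands apart in this respect.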

How the data were processed

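RPE RNA of 14 mice was sequenced from TruSeq Stranded mRNA libraries. The deposited values are counts of reads per Ensembl gene, which the authors made without normalization. The submitters' processing notes name bcl2fastq 2.19, STAR 2.5.2, HTSeq 0.11.2, Cufflinks 2.1.1 and the build GRCm38. The strand setting and the annotation release of the counting are not given in the sources used here. Of 42687 genes, 42250 had a name in GENCODE M21.

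KO and WT were compared with edgeR 4.0.16 (limma 3.58.1, R 4.3.3): filterByExpr, TMM and the quasi-likelihood test with Benjamini-Hochberg adjustment, called at an adjusted p under 0.05 and a fold change above 1.5. The study used DESeq2, which was run as an alternative (1.42.0). The RPE-scaled and fibroblast-scaled fits took as size factor the median, over 10 markers, of the count over its geometric mean. The edgeR fits of KO vs. WT with TMM and with RPE scaling were first run on simulated counts. These changed the RPE marker share but not the fibroblast share. The fibroblast-scaled fit, DESeq2, the fits of the other sets and the test of differences between sets were not run on simulated counts. Named genes are the CLIC family, the 10 most changed genes each way, the 12 with the largest RPE-scaled rise and up to 12 with the largest fibroblast-scaled fall (mean of at least 10 CPM, no clone names, no overlap between groups), the first 3 tested members of each list with every RPE function gene called lower on the RPE scale, and the 5 genes with the most counts in each group. Most of the last 2 kinds are given by counts. The members, lists and rules were chosen with earlier results of these data known. Results for some genes are not reported here. Replicate numbers were not taken to pair mice. Deviations of WT and KO libraries of the same number correlated at -0.01, 0.09 and 0.22 over genes, and those of different numbers at -0.19 to 0.08. These values do not settle whether the numbers pair mice. Promoters were read with pandas 2.3.3 (Python 3.11.15).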

Additional observations from a re-analysis of the deposited data

Results flagged for a closer look

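For 2 members of the CLIC family the KO effect relative to the RPE markers differed between the KO vs. WT libraries and another set, by an interaction term of edgeR's test with Benjamini-Hochberg adjusted p under 0.05 over 17662 genes. Since 33.9% of all genes differed in this way from the Ctrl set and 33.8% from the CreCtrl set, such a difference is common, and control genotype and set cannot be told apart. The genes named for a large KO vs. WT change were left out here, since their choice tilts such a test.

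The all-gene median log2 fold change relative to the RPE markers was -1.79 against WT, -0.61 against Ctrl and -0.71 against CreCtrl. Most genes are thus shifted between sets on this scale. The differences in log2 fold change, KO vs. WT minus KO vs. Ctrl, were -2.79 for Clic4 (edgeR, adjusted p = 0.0093) and -1.14 for Clic1 (adjusted p = 0.0474). That of Clic1 is close to the gap between the all-gene medians of these 2 comparisons. KO vs. WT minus KO vs. CreCtrl, they were -2.29 for Clic4 (adjusted p = 0.0144) and -1.99 for Clic1 (adjusted p = 0.00473).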

How the results depend on the processing

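All 12 genes with the largest excess over the RPE markers stayed called in all 13 alternatives of that fit, which left out a library or changed the filter, the markers, the test or the pairing. The 12 were chosen by their value in these same libraries, with no overlap between the groups, so the choice favours this outcome and it is no independent support. The 4887 genes called with TMM became 0 by edgeR's test with the fibroblast score as a covariate (770 at an unadjusted p under 0.05) and 0 with the RPE score (516), with scores that do not overlap between the groups. Clic4 was then -1.49 (adjusted p = 0.938) and -2.30 (adjusted p = 1.0). Leaving out 1 library gave 4230 to 4640 genes with TMM, 11005 to 11678 relative to the RPE markers and 13034 to 13542 relative to the fibroblast markers, and -3.54 to -3.04 for Clic4. The 62 genes higher beyond the RPE markers became 41 with the melanosome list, 39 without Rlbp1, Rdh5 and Slc16a8, and 43 to 102 without 1 library (102 without WT replicate 2). The 5 lower than the fibroblast markers became 3 with every gene kept, 1 with 10 counts in every library, 10 with summed markers, 22 without the collagens, 573 with the endothelial list, and 7 to 76 without 1 library: 76 without KO replicate 1, 17 without KO replicate 3, 11 without WT replicate 1 and 8 without WT replicate 3 or KO replicate 2. With the RPE score the direction turned for Cltrn (-1.51), Sult1c1 (-1.55), Clic6 (-1.27), Cytl1 (0.39), Retnla (3.85) and Clic5 (0.21), and with the fibroblast score for Bnc2 (4.03), Tfpi (4.52), Zbtb7c (5.85) and Prss35 (4.58). Clic3 was -0.51 with the replicate block and -0.51 to 1.17 without 1 library (-0.51 without KO replicate 1), and Clic4 relative to the endothelial list was -1.19. Comp relative to the fibroblast markers lost its call in 5 alternatives (highest adjusted p 0.147) and Clic4 in 8 (highest 0.191). Except where a construction shows it (fewer samples, fewer genes), the cause was not tested. With the replicate block, in a paired fit, 4543 genes were called with TMM and 50 higher relative to the RPE markers. DESeq2, with its own size factors in place of TMM, called 5325 genes. The bound of Il1rl1 without WT replicate 2 was chosen after seeing the data. In the Ctrl set 676 genes were lower relative to the RPE markers by edgeR and 2913 by DESeq2.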
